A study of Rattus norvegicus with 12 samples.

Results

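Transcripts that mark microglia, the resident immune cells of the brain, and their activation were followed in hippocampal RNA of rats that had been exposed to blast and fed boldine or not. A list of 37 gene symbols was matched to the rows of the count table, and 36 had a row among 17494 genes. Itgax was not analysed here. The 36 genes fell into 10 homeostatic identity genes, 13 genes of the myeloid lineage and its signalling, 11 innate immune receptors and lysosomal genes, and 2 genes of the disease-associated state. The first 2 lists are called identity genes below, 23 in all, and the last 2 activation genes, 13 in all.

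The libraries came from 12 male Long Evans hooded rats, labelled WT in genotype, which were exposed to 3 blasts at 10 weeks of age and sacrificed 29 weeks after blast. Of these, 6 ate chow with 500 mg/kg boldine, an alkaloid of the boldo tree, from week 2 after blast (blast-boldine), and 6 ate the same diet without it (blast-controls). Both groups were blast-exposed, and no library of a sham rat was analysed, so the values below compare diets within blast-exposed rats and say nothing on blast itself. The tissue is brain in the labels and hippocampus in the study's methods, and each library was made from 1 rat.

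Microglia are kept in a resting, surveying state by signals from neurons and astrocytes, and in that state they express purinergic receptors and surface proteins that other brain cells lack. Injury, infection or amyloid shifts them towards phagocytosis: homeostatic transcripts are turned down, while Fc receptors, Toll-like receptors, lysosomal proteases and, through the TREM2-TYROBP receptor pair, a disease-associated set of transcripts are turned up. In RNA from bulk tissue, fewer microglia and less RNA per microglial cell cannot be told apart.

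Counts on genes summed to between 10148474 and 40850106 in 11 libraries and to 74008 in that of blast-control rat 6. In rat 6 the 36 genes together held 27 counts, 25 of them had 0 counts, and only Ctss, Gpnmb and Grn reached 3 counts. There 1 count was worth 15.8 CPM (counts scaled to a common library size after TMM normalization), so a gene with 0 counts could still lie at up to 47.5 CPM, a limit that covers counting error only. Group ranges below therefore give the 5 other blast-controls, and counts of called genes are given with and without rat 6. In the 11 other libraries the 36 genes had between 6 and 10090 counts each, with a median of 152.

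The library names end in suffixes from 1 to 6, and every suffix is used for a pair of libraries. Of 4 ways to split the libraries into 2 sample sheets by suffix and rat number, the split of rats 1, 7, 9, 20, 32 and 35 (sheet A) from rats 4, 5, 6, 12, 17 and 19 (sheet B) accounted for 94.8% of the first principal component of 11516 genes in 11 libraries. Treatment accounted for 1.59% of it. Each sheet held 3 rats of each treatment. The sheet is an inference from names and values, not a label, so differences between sheets are described without a test.

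Per kilobase of gene length, Ctss was the most abundant of the 36 genes. Ctss encodes cathepsin S, a lysosomal protease of antigen-presenting cells, and had a median of 168 RPKM (CPM per kilobase) over 11 libraries. It was followed by Lgmn, which encodes the lysosomal protease legumain, at 53.7 RPKM, and by Lyz2 (lysozyme) at 33.9 RPKM and Grn (progranulin) at 33.2 RPKM. Neither Lyz2 and Grn nor Grn and Aif1 (28.8 RPKM) were separated by their ranges over libraries. Among homeostatic genes, P2ry12 stood at 19.6 RPKM, Gpr34 at 19.4, Selplg at 17.8 and Mertk at 17.6 RPKM, levels whose ranges overlapped. The scarcest of the 36 were Cybb at 1.36 RPKM, Cd68 at 0.963, Spp1 at 0.870 and Cd14 at 0.525 RPKM. Each of the 36 genes was thus present in all 11 deeper libraries.

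**Figure D1:**
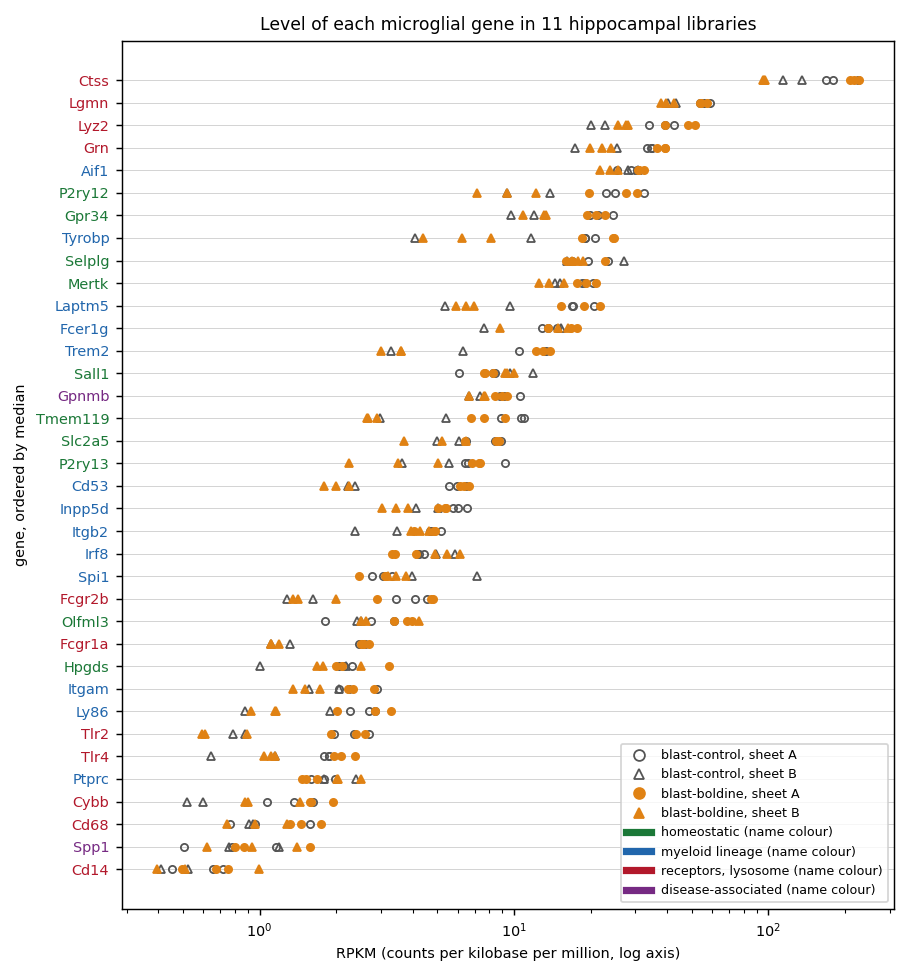
Level of each of the 36 genes in 11 libraries, in RPKM on a log axis, ordered by median; every symbol is 1 rat, filled for blast-boldine and open for blast-control, round for sheet A and triangular for sheet B, and the colour of the name gives the list. Ctss lies at the top with a median of 168 RPKM and Cd14 at the bottom with 0.525 RPKM, and for genes such as Trem2 and Tlr2 the triangles lie apart from the circles.

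Several of the genes lie side by side in the genome. P2ry12 and P2ry13, which encode ADP receptors, occupy 143482465 to 143485412 and 143471884 to 143472894 of chromosome 2 in mRatBN7.2, both on the minus strand. Selplg and Tmem119 lie on chromosome 12 at 42807878 to 42809170 and 42828621 to 42835678. Reads were counted by strand. Lyz2, Fcgr1a and Fcgr2b have close relatives in the table (Lyc2, Fcgr2a and Fcgr3a). The counting command that the study gives holds no option to count reads with several alignments. How many reads these genes lost in this way was not tested, so their values are less certain.

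Promoter sequence was found for 23 of the 36 genes in the RefSeq table of the GRCr8 build. It was searched for the core of the PU-box, GAGGAA, which is the binding sequence of PU.1, the product of Spi1 and the master regulator of myeloid cells. On either strand of the 250 bases before and the 50 bases after the start site, GAGGAA occurred in 15 of 23 promoters (65.2%), against 27.6% of all 33469 promoters of the table. It occurred in 6 of 7 promoters of the lineage list, 7 of 9 of the receptor and lysosome list, 1 of 5 of the homeostatic list and 1 of 2 of the disease-associated list. The longer GAGGAAGT, which contains the core, was found in 3 promoters (Cd53, Ctss and Inpp5d) and in 2.42% of all promoters. These matches are descriptions of letters in a window. Below, 100 bases before and 5 bases after the start site are given 5′ to 3′ on the strand of the gene for 8 genes with a promoter entry. The first 4 of them had the smallest p between treatments with the sheet in the model and rat 6 left out (Tmem119 has no entry). Ctss was the most abundant. Trem2, Tlr2 and Cd53 differed most between sheets among genes with an entry (Tyrobp, which differed more than Tlr2 and Cd53, has none). Capitals mark GAGGAA or its complement TTCCTC.
Inpp5d (chr9:95735433-95735537, plus strand): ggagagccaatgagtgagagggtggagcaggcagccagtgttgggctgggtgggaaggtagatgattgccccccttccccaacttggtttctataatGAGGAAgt
Cybb (chrX:16065061-16065165, minus strand): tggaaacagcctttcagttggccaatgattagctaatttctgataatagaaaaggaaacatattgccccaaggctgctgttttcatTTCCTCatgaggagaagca
Lyz2 (chr7:54798007-54798111, minus strand): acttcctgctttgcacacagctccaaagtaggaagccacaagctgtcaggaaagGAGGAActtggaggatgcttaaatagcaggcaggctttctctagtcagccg
Olfml3 (chr2:193935490-193935594, minus strand): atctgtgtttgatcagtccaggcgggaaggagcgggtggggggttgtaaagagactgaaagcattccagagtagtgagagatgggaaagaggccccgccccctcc
Ctss (chr2:185775296-185775400, plus strand): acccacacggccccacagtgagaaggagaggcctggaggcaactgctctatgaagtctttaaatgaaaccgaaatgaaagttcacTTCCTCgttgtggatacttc
Trem2 (chr9:20151775-20151879, minus strand): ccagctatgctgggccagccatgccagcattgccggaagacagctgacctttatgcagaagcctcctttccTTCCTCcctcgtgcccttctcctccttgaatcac
Tlr2 (chr2:171504553-171504657, minus strand): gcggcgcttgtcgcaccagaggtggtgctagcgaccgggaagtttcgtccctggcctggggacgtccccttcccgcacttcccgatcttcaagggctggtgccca
Cd53 (chr2:197087892-197087996, minus strand): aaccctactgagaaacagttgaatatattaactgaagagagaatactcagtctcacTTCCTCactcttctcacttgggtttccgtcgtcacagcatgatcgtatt
In Inpp5d the core spans the start site, in Cybb it lies at bases -14 to -9 and in Ctss at bases -15 to -10 from it, and Olfml3 and Tlr2 have none in the window searched.

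No gene of the 36 differed between blast-boldine and blast-control rats at an adjusted p under 0.05 in edgeR's quasi-likelihood test over all 12 libraries, where the smallest adjusted p was 1 and 0% of the 12325 genes tested were called. At an unadjusted p under 0.05 again 0 of 36 were called, against 1.07% of all genes tested, and DESeq2 also called 0, against 0.542% of all genes. All 36 passed the filter on low counts. The fitted log2 fold change (blast-boldine over blast-control) was above 0 for 11 genes, where 51.3% of all genes were, and below 0 for 25, with a median of -0.05 against 0.00 over all genes tested. It ranged from -0.52 for Tmem119 to 0.41 for Olfml3. The median standard error was 0.256, on which differences of this size did not pass the test. The standard error (SE) was derived as the absolute log2 fold change over the square root of edgeR's F statistic. Without rat 6, 0 of 36 genes were called at either threshold in edgeR, against 1.40% of all genes at an unadjusted p under 0.05.

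Much of the spread within a treatment lay between the sheets, which the way the split was chosen favours. The median SD of log2 CPM within a treatment was 0.427 over the 11 libraries and 0.253 within treatment and sheet, and it was smaller within sheets for 31 of 36 genes. With the sheet added to the model and rat 6 left out, the median standard error was 0.143 on the log2 scale. In that fit 14 of 36 genes lay above 0, where 47.4% of all genes did, and 5 of 36 genes had an unadjusted p under 0.05, against 5.35% of the 12529 genes tested, and none had an adjusted p under 0.05 in edgeR (the smallest was 0.898). Tmem119 and Inpp5d were the 2 lower ones, where 3.54% of all genes were called lower, and Olfml3, Cybb and Lyz2 the 3 higher ones, where 1.81% were called higher. DESeq2 with the sheet and without rat 6, a fit chosen after seeing the data, called the same 5 genes at an unadjusted p under 0.05 and 4.69% of all genes. The sheet in the model with rat 6 kept in also gave 5 of 36, against 3.85% of all genes. Leaving out rat 6 alone, with no sheet in the model, gave log2 fold changes of -0.56 for Tmem119, -0.34 for Inpp5d, 0.40 for Olfml3, 0.38 for Cybb, 0.20 for Lyz2, -0.34 for Spi1 and -0.06 for Aif1. In the same fit they were -0.23 for P2ry12, -0.03 for Sall1, -0.18 for Selplg, -0.19 for Trem2, -0.05 for Tyrobp and 0.19 for Fcer1g, and 0.25 for Cd68, 0.20 for Cd14 and 0.22 for Spp1. The smallest unadjusted p of these genes in edgeR were then 0.0702 for Olfml3 and 0.0843 for Inpp5d. Across the 11 libraries the treatments overlapped for all 36 genes, and 0.146% of all genes did not overlap. Within sheet A, 4 of the 36 genes were higher with boldine without overlap and 2 lower, against 2.92% and 3.98% of all genes. Within sheet B, with 2 controls, 3 were higher and 5 lower, against 10.9% and 11.4% of all genes.

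**Figure D2:**
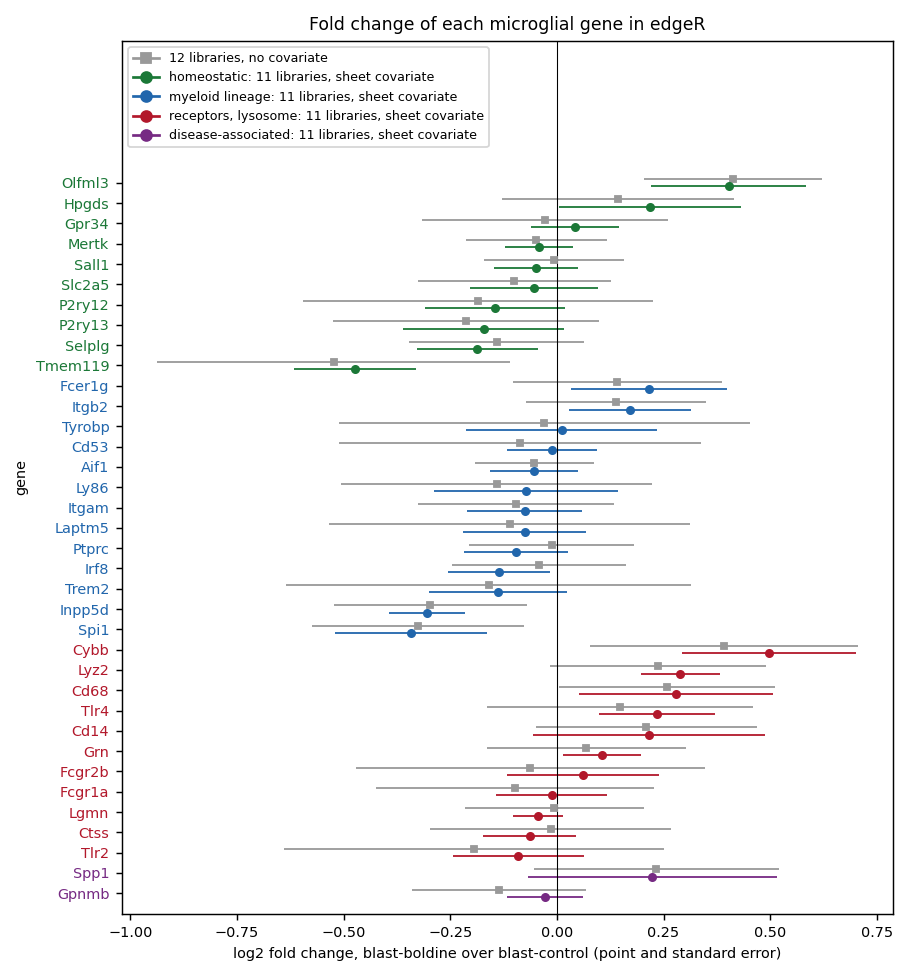
Log2 fold change of each gene, blast-boldine over blast-control, with its standard error in edgeR; grey squares are the fit of 12 libraries without a covariate and coloured circles the fit of 11 libraries with the sheet as a covariate, by list. The median standard error, derived from the fold change and the F statistic, is 0.256 for the squares and 0.143 for the circles. The circles of Tmem119 (-0.47), Inpp5d (-0.30), Lyz2 (0.29), Olfml3 (0.40) and Cybb (0.50) lie farthest from 0 in relation to their error.

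Among the 10 homeostatic genes, 2 lay above 0 and 8 below in the fit of 12 libraries, with a median log2 fold change of -0.07. With the sheet and without rat 6 the split was 3 to 7 and the median -0.05. Tmem119, a transmembrane protein used to tell microglia from blood-derived macrophages, lay between 5.75 and 19.98 CPM in blast-boldine rats with a median of 10.5, and between 6.45 and 23.8 CPM in 5 blast-controls with a median of 19.3. Rat 6 had 0 counts of it. In sheet A the boldine rats overlapped the controls, at 14.7, 16.5 and 19.98 CPM against 19.3, 23.1 and 23.8 CPM, and in sheet B they did not, at 5.75, 5.77 and 6.30 CPM against 6.45 and 11.7 CPM. Its log2 fold change was -0.52 (SE 0.414, unadjusted p = 0.228 in edgeR) over 12 libraries and -0.47 (SE 0.143, unadjusted p = 0.00589, adjusted p = 0.898 in edgeR) with the sheet and without rat 6. An exact two-sided permutation test within sheets gave p = 0.015 over 11 libraries, where the smallest possible p is 0.005, and p = 0.990 over 12 libraries.

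Olfml3, a secreted olfactomedin-like protein made by microglia, was the homeostatic gene with the highest fold change. It lay between 4.39 and 7.44 CPM in blast-boldine rats with a median of 6.33, and between 3.17 and 5.93 CPM in 5 blast-controls with a median of 4.40; rat 6 had 0 counts. The boldine rats were above all controls of their sheet in sheet A and overlapped them in sheet B. The log2 fold change was 0.41 (SE 0.209, unadjusted p = 0.0698 in edgeR) over 12 libraries, the smallest p of the 36 genes, and 0.40 (SE 0.181, unadjusted p = 0.0449, adjusted p = 0.898 in edgeR) with the sheet and without rat 6. By exact permutation, p was 0.0325 over 12 libraries, in which rat 6 with its 0 counts is the lowest control. It was 0.0649 over the 11 libraries without rat 6. The exact permutation p within sheets was 0.01 with rat 6 and 0.06 without it.

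P2ry12, the ADP receptor that steers microglial processes towards damage, spanned 8.93 to 38.1 CPM in blast-boldine rats (median 19.9) and 11.8 to 40.5 CPM in 5 blast-controls (median 28.8). The groups overlapped almost entirely, and the log2 fold change was -0.19 (SE 0.410, unadjusted p = 0.659 in edgeR). Sall1, a transcription factor that keeps microglial identity, lay between 39.2 and 51.2 CPM in blast-boldine rats (median 44.8) and between 31.2 and 60.9 CPM in 5 blast-controls (median 43.2). Its log2 fold change was -0.01 (SE 0.164, unadjusted p = 0.967 in edgeR). Selplg, the selectin ligand PSGL-1, lay between 20.2 and 28.9 CPM in blast-boldine rats (median 22.0) and between 20.4 and 34.2 CPM in 5 blast-controls (median 24.8), with a log2 fold change of -0.14 (SE 0.205, unadjusted p = 0.504 in edgeR). Neither Sall1 nor Selplg was separated by treatment. The other 5 homeostatic genes had log2 fold changes between -0.21 and 0.14 over 12 libraries. They were P2ry13, Gpr34 (a receptor for lysophosphatidylserine), Slc2a5 (a fructose transporter), Hpgds (a prostaglandin D synthase) and Mertk (a receptor for dying cells).

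The 13 genes of the myeloid lineage and its signalling leaned below 0: 2 lay above and 11 below in the fit of 12 libraries, with a median of -0.09, and 3 and 10 with the sheet and without rat 6, with a median of -0.08. Inpp5d, which encodes the lipid phosphatase SHIP1 that damps signals from TREM2 and Fc receptors, lay between 15.0 and 26.7 CPM in blast-boldine rats (median 21.8) and between 20.3 and 32.3 CPM in 5 blast-controls (median 28.4). The treatments did not overlap within either sheet. In sheet A the boldine rats had 24.8, 26.4 and 26.7 CPM and the controls 28.4, 29.7 and 32.3 CPM. In sheet B the boldine rats had 15.0, 16.9 and 18.9 CPM and the controls 20.3 and 24.7 CPM. Of the 36 genes only Inpp5d was separated in the same direction in both sheets, while 0.706% of all genes were separated in both sheets with boldine lower. The log2 fold change was -0.30 (SE 0.226, unadjusted p = 0.211 in edgeR) over 12 libraries and -0.30 (SE 0.0885, unadjusted p = 0.00453, adjusted p = 0.898 in edgeR) with the sheet and without rat 6. The exact permutation test within sheets gave p = 0.005 over 11 libraries, the smallest it can give, p = 0.102 over 11 libraries without regard to sheet, and p = 0.950 over all 12 libraries, in which rat 6 with its 0 counts is the lowest control.

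Aif1 encodes Iba1, the protein stained in the study to trace microglial shape. That stain was made in somatosensory cortex, in a single animal per group, whereas the RNA here is from hippocampus. Its transcript lay between 14.3 and 21.2 CPM in blast-boldine rats (median 18.4) and between 16.8 and 20.3 CPM in 5 blast-controls (median 18.9). The 2 sheets gave opposite orders without overlap. In sheet A the boldine rats had 20.1, 20.4 and 21.2 CPM and the controls 16.8, 18.9 and 19.97 CPM, a mean difference of 0.15 in log2 CPM. In sheet B the boldine rats had 14.3, 15.7 and 16.8 CPM and the controls 18.4 and 20.3 CPM, a mean difference of -0.31. Among the 36 genes only Aif1 was separated in opposite directions, as were 0.438% of all genes, and the difference between the sheets was not tested. Over 12 libraries the log2 fold change was -0.05 (SE 0.140, unadjusted p = 0.709 in edgeR), the smallest standard error of the 36 genes, and the exact permutation p was 0.792.

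Trem2, the lipid-sensing receptor of microglia, lay between 3.46 and 16.1 CPM in blast-boldine rats (median 9.12) and between 3.79 and 15.4 CPM in 5 blast-controls (median 12.2). Tyrobp, the adaptor DAP12 through which TREM2 signals, lay between 2.31 and 12.95 CPM (median 6.99) and between 2.15 and 10.9 CPM (median 9.95). For both genes the treatments covered the same range, with log2 fold changes of -0.16 (SE 0.475, unadjusted p = 0.742 in edgeR) for Trem2 and -0.03 (SE 0.482, unadjusted p = 0.952 in edgeR) for Tyrobp. Fcer1g, the adaptor shared by activating Fc receptors, lay between 5.55 and 11.2 CPM in blast-boldine rats (median 9.84) and between 4.81 and 9.68 CPM in 5 blast-controls (median 8.60), with a log2 fold change of 0.14 (SE 0.246, unadjusted p = 0.574 in edgeR). Spi1 lay between 3.28 and 5.06 CPM in blast-boldine rats (median 4.24) and between 3.71 and 9.63 CPM in 5 blast-controls (median 4.45). The upper end is rat 5 alone, the next control being rat 4 at 5.33 CPM, and the log2 fold change of -0.33 (SE 0.249, unadjusted p = 0.213 in edgeR) became -0.03 in the fit that left out the library of rat 5. The other 7 genes of this list had log2 fold changes between -0.14 and 0.14 over 12 libraries. They were Irf8, Ptprc (the leukocyte phosphatase CD45), Cd53 (a tetraspanin), Laptm5 (a lysosomal membrane protein), Itgam and Itgb2 (the subunits of complement receptor CR3) and Ly86 (MD-1, a partner of a Toll-like receptor homologue).

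**Figure D3:**
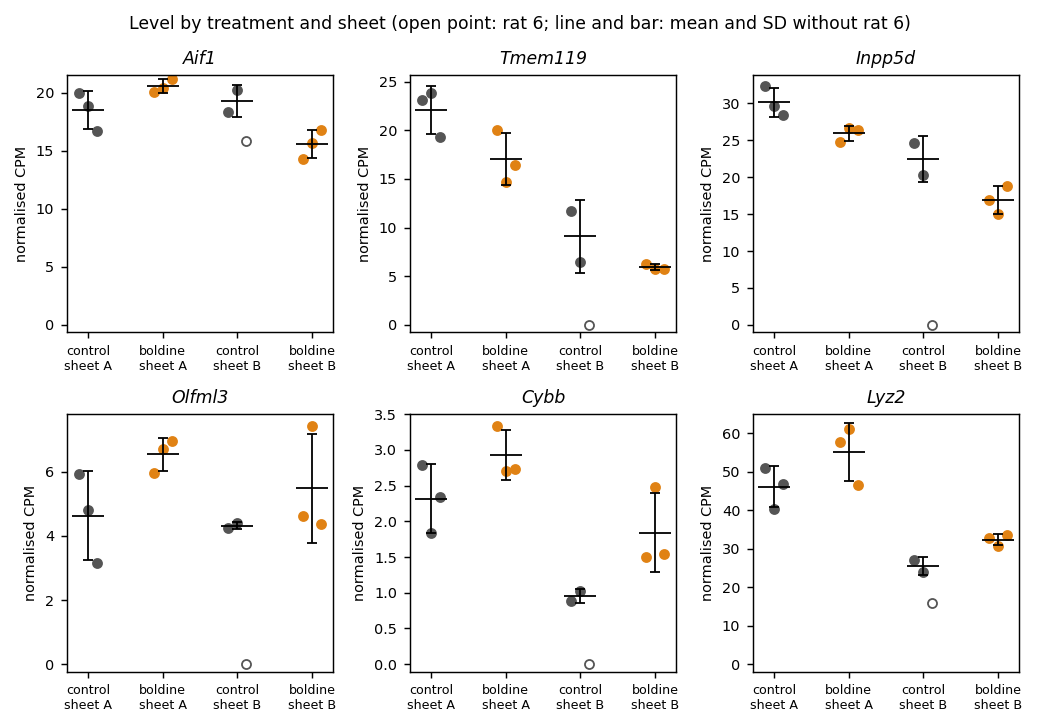
Normalised CPM of 6 genes in each rat, by treatment and sheet; grey points are blast-controls, orange points blast-boldine rats, the open point is rat 6, and the line and bar are the mean and SD without rat 6. Inpp5d is lower with boldine in both sheets without overlap, Aif1 is higher with boldine in sheet A and lower in sheet B, and the points of Olfml3 overlap in sheet B.

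Among the 11 innate receptors and lysosomal genes, 6 lay above 0 and 5 below over 12 libraries with a median of 0.07, and 7 and 4 with the sheet and without rat 6 with a median of 0.11. Cybb, the catalytic subunit gp91phox of the phagocyte NADPH oxidase, lay between 1.502 and 3.34 CPM in blast-boldine rats (median 2.59) and between 0.889 and 2.79 CPM in 5 blast-controls (median 1.83). The boldine rats were above both controls of sheet B, which had 0.889 and 1.02 CPM, and overlapped the controls of sheet A. Its log2 fold change was 0.39 (SE 0.314, unadjusted p = 0.234 in edgeR) over 12 libraries and 0.50 (SE 0.204, unadjusted p = 0.0304, adjusted p = 0.898 in edgeR) with the sheet and without rat 6; the exact permutation p within sheets was 0.015 with rat 6 and 0.085 without it.

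Lyz2, which encodes lysozyme of macrophages and neutrophils, lay between 30.6 and 61.0 CPM in blast-boldine rats (median 40.0) and between 23.9 and 50.9 CPM in 5 blast-controls (median 40.4). In sheet B the boldine rats had 30.6, 32.8 and 33.5 CPM and the controls 23.9 and 27.1 CPM, without overlap; in sheet A they had 46.5, 57.6 and 61.0 CPM against 40.4, 46.9 and 50.9 CPM. The log2 fold change was 0.24 (SE 0.253, unadjusted p = 0.364 in edgeR) over 12 libraries and 0.29 (SE 0.0917, unadjusted p = 0.00775, adjusted p = 0.898 in edgeR) with the sheet and without rat 6. The exact permutation p within sheets was 0.015 with rat 6 and 0.165 without it.

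Cd68, a lysosomal membrane protein of phagocytes, lay between 0.893 and 2.09 CPM in blast-boldine rats (median 1.56) and between 0.917 and 1.89 CPM in 5 blast-controls (median 1.13), with a log2 fold change of 0.26 (SE 0.254, unadjusted p = 0.524 in edgeR). Cd14, the co-receptor for lipopolysaccharide, lay between 0.595 and 1.502 CPM (median 0.890) and between 0.614 and 1.08 CPM (median 0.790), with a log2 fold change of 0.21 (SE 0.259, unadjusted p = 0.434 in edgeR). Both were scarce and overlapped between treatments. Ctss, the most abundant gene, had a log2 fold change of -0.01 and that of Grn was 0.07, while the other 5 genes (Fcgr1a, Fcgr2b, Tlr2, Tlr4 and Lgmn) lay between -0.19 and 0.15.

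Of the disease-associated state, Gpnmb, a glycoprotein of lipid-laden phagocytes, lay between 15.4 and 21.7 CPM in blast-boldine rats (median 18.6) and between 15.3 and 24.4 CPM in 5 blast-controls (median 20.3). Spp1 (osteopontin) lay between 0.923 and 2.35 CPM (median 1.34) and between 0.750 and 1.78 CPM (median 1.16). The log2 fold changes of -0.14 (SE 0.204, unadjusted p = 0.515 in edgeR) and 0.23 (SE 0.288, unadjusted p = 0.432 in edgeR) were within their errors, and that of Gpnmb was -0.07 without rat 6, which held 4 counts of it. Clec7a and Cst7, which mark the same state, were too scarce for the filter, with 103 and 9 counts over all 12 libraries. Their mean levels were 0.674 and 0.0454 CPM in blast-boldine rats and 0.343 and 0.0236 CPM in 5 blast-controls. Both belong to a list of 28 further activation genes, of which 20 were tested, 10 above and 10 below 0. The most abundant of that list, Apoe and Ctsb, had log2 fold changes of -0.39 and -0.03 over 12 libraries. That of Apoe was -0.06 with the sheet and without rat 6.

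Activation genes were also set against homeostatic genes within each library. Activation counts were between 1.78 and 2.59 times homeostatic counts in blast-boldine rats (median 2.15) and between 1.80 and 2.46 times in 5 blast-controls (median 2.01). The ranges of the treatments overlapped, and those of the sheets did not: the ratio was between 2.01 and 2.59 in sheet A and between 1.78 and 1.91 in sheet B. Ctss alone gave between 40.1% and 52.2% of the activation counts in these libraries. Of the homeostatic genes Mertk and Sall1 were the most abundant, at means of 50.3 and 44.6 CPM in blast-boldine rats. There the 10 homeostatic genes summed to a mean of 201 CPM. The part of Mertk and Sall1 in the ratio was not tested. Without Ctss the sheets overlapped, with ratios between 1.04 and 1.34 in sheet A and between 0.929 and 1.14 in sheet B. In sheet A the boldine rats then had ratios between 1.17 and 1.34 and the controls between 1.04 and 1.20, which overlapped. In sheet B the 3 boldine rats had 1.06 to 1.14 and the 2 controls 0.929 and 0.956, which did not overlap. With Ctss kept in, the sheet B ratios overlapped, at 1.78 to 1.91 with boldine and 1.80 to 1.84 in controls. Ctss itself was lower with boldine in sheet B without overlap, at means of 127 against 165 CPM. In sheet A its mean was higher with boldine, at 288 against 252 CPM, with overlap. Of all genes, 10.9% were higher with boldine without overlap in sheet B and 11.4% lower. The summed level of all 36 genes lay between 577 and 1009 CPM in blast-boldine rats (median 784) and between 595 and 971 CPM in 5 blast-controls (median 909).

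The sheet went with larger differences than the treatment, which the way the split was chosen favours. In sheet A the 36 genes summed to between 909 and 1009 CPM and in sheet B without rat 6 to between 577 and 704 CPM. No overlap between sheets was seen for 21 genes with sheet A higher, against 24.2% of all genes, and for 2 genes (Sall1 and Irf8, an interferon regulatory factor of the myeloid lineage) with sheet B higher, against 24.8% of all genes. The median difference in log2 CPM, sheet A minus sheet B, was 0.58 for the 36 genes and 0.02 for all genes. The mean log2 CPM was higher in sheet A by over 1 for 10 genes, against 7.45% of all genes, and the ratio of mean CPM was 3.20 for Trem2, 3.09 for Tlr2, 3.05 for Tyrobp, 2.92 for Cd53, 2.71 for Tmem119, 2.68 for Laptm5, 2.66 for Fcgr2b, 2.53 for P2ry12, 2.21 for Ly86 and 2.19 for Fcgr1a. These 10 genes came from 3 of the 4 lists, and 13 of the 36 genes overlapped between the sheets, Spi1, Ptprc, Selplg, Spp1 and Cd14 among them.

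Within sheet B, control rat 4 was the highest of the 5 deeper libraries for 16 of 36 genes and the lowest for 8, and boldine rat 17 was the highest for 7 and the lowest for 11. For Trem2, rat 4 had 7.31 CPM while the other 4 rats lay between 3.46 and 4.17 CPM, and Tyrobp was 6.12 CPM against 2.15 to 4.28 CPM. For both genes the other control of sheet B lay within the range of the boldine rats or below it. Markers of other cells also moved with the sheet: summed endothelial and pericyte markers lay between 114 and 158 CPM in sheet A and between 250 and 313 CPM in sheet B, and summed red cell markers between 199 and 273 CPM and between 57.8 and 143 CPM. Library totals were between 11835956 and 40850106 in sheet A and between 10148474 and 17952696 in sheet B without rat 6. The part of cell composition, depth and library preparation in the sheet difference was not tested.

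**Figure D4:**
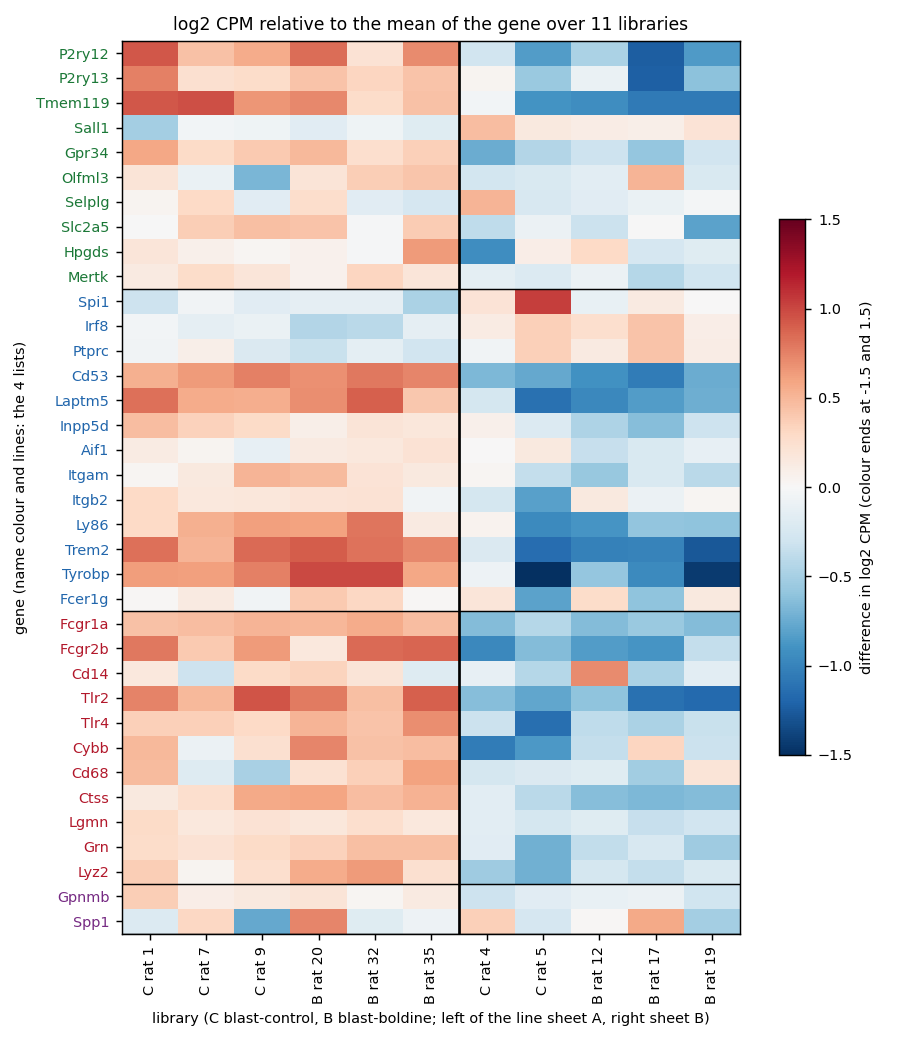
Log2 CPM of each gene in 11 libraries relative to the mean of the gene, in red above and in blue below it; columns are rats by sheet and treatment, and horizontal lines part the 4 lists. Most rows change colour at the vertical line between sheets, Sall1, Irf8, Ptprc and Spi1 run the other way, and in sheet B rat 4 is less blue than rat 5 for Trem2, Tyrobp and Tmem119.

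Microglial genes beyond the 36 were read in the same fits. Of 30 further identity genes (complement C1q, receptors and transcription factors), 26 had a row and were tested: 6 lay above 0 and 20 below with a median of -0.10 over 12 libraries, and 0 had an unadjusted p under 0.05 in edgeR. With the sheet and without rat 6 the split was 4 to 22, with a median of -0.12 against -0.01 over all genes. The most abundant by CPM were Bin1, an endocytic adaptor also made by neurons and oligodendrocytes, and Adgrg1, an adhesion receptor, with log2 fold changes of -0.06 and -0.05. In the sheet fit 2 of the 26 had an unadjusted p under 0.05, against 5.35% of all genes. Runx1 at -0.48 (SE 0.192, unadjusted p = 0.0270 in edgeR) and Csf3r at -0.26 (SE 0.118, unadjusted p = 0.0455 in edgeR), a myeloid transcription factor and a cytokine receptor named after their values were seen, both lay below 0 with an adjusted p of 0.898 in edgeR. Between sheets, 11 of these genes were higher in sheet A and 4 higher in sheet B without overlap.

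Of 28 further activation genes, 20 were tested, 10 above and 10 below 0, with a median of -0.01. Ch25h, which makes 25-hydroxycholesterol, and Vim, an intermediate filament protein also made by astrocytes and vessels, were 2 of 20 with an unadjusted p under 0.05, against 1.07% of all genes, both higher with boldine (0.00400 and 0.0122 in edgeR, log2 fold changes 0.66, SE 0.191, and 0.55, SE 0.191). Of 14 tested genes for partners and kinases of the ITAM pathway, which carries signals of TYROBP and FCER1G, 5 lay above and 9 below 0, and 0 had an unadjusted p under 0.05 in edgeR. Of 14 tested genes for survival factors and TGF-beta signals to microglia, 6 lay above and 8 below 0. Of these, 1 had an unadjusted p under 0.05, against 1.07% of all genes. It was Cx3cl1, the neuronal ligand of CX3CR1, lower with a log2 fold change of -0.35 (SE 0.133, unadjusted p = 0.0214 in edgeR). The study had already singled out Cx3cl1 by its nominal p in the same libraries. The adjusted p of all these genes was 1 over 12 libraries in edgeR.

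Other immune cells that share transcripts with microglia were checked by their markers. All 5 tested markers of perivascular macrophages had log2 fold changes above 0, where 51.3% of all genes were, with a median of 0.26. Of these 5, 1 had an unadjusted p under 0.05 in edgeR, against 1.07% of all genes. F13a1, coagulation factor XIII A, averaged 3.66 ± 0.843 CPM in 6 blast-boldine rats and 2.24 ± 0.624 CPM in 5 blast-controls (mean ± SD), with a log2 fold change of 0.70 over 12 libraries (SE 0.238, unadjusted p = 0.0115, adjusted p = 1 in edgeR). Over 8 markers with a row, none at 0 in every library, the sum lay between 16.4 and 25.1 CPM in blast-boldine rats and between 13.3 and 19.1 CPM in 5 blast-controls. Macrophages also express Lyz2 and Cybb, and the part of these cells in the values of both genes was not tested. Monocyte and neutrophil markers summed to between 0.923 and 3.02 CPM with boldine and between 1.23 and 3.56 CPM in 5 controls, and lymphocyte markers to between 4.16 and 8.56 CPM and between 5.73 and 8.74 CPM, so both lists overlapped and were low.

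Tissue at the edge of the hippocampus varied between rats. Markers of the meninges, which hold border macrophages, had log2 fold changes above 0 for 6 of 7 genes, where 51.3% of all genes were, with a median of 0.61. Col3a1 (0.94, SE 0.395, unadjusted p = 0.0335 in edgeR) and Slc6a13 (0.98, SE 0.354, unadjusted p = 0.0155 in edgeR) were 2 of 7 with an unadjusted p under 0.05, against 1.07% of all genes, and their adjusted p was 1 in edgeR. The sum of the 7 markers lay between 71.6 and 292 CPM in blast-boldine rats and between 50.4 and 238 CPM in 5 blast-controls. Choroid plexus markers summed to between 9.31 and 1237 CPM with boldine and between 14.4 and 1236 CPM in 5 controls. Markers of neurons, astrocytes, oligodendrocytes, endothelium, hippocampal neurons and red cells held 0 genes with an unadjusted p under 0.05 over 12 libraries in edgeR. With the sheet and without rat 6, 5.35% of all genes had an unadjusted p under 0.05 in edgeR. In that fit 1 of 8 neuron markers was called, Nefl, a neurofilament, at 0.23 (unadjusted p = 0.0134 in edgeR). Of 8 hippocampal neuron markers 1 was called, Wfs1, a marker of CA1 neurons, at -0.28 (unadjusted p = 0.0113 in edgeR). Of 7 meningeal markers 3 were called (Lum, Col3a1 and Slc6a13), all higher with boldine. The adjusted p of these genes was 0.898 in edgeR. The part of meningeal tissue in the values of the 36 genes was not tested.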

How the data were processed

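Total RNA from the hippocampus of 12 rats was depleted of ribosomal RNA and made into stranded libraries. The authors cleaned the reads with HTStream 1.3.3, aligned them to mRatBN7.2 with STAR 2.7.11b, allowing up to 20 alignments, and counted those on exons of RefSeq genes with featureCounts of Subread 2.0.1, by gene name and strand. The deposited values are these counts per gene, without normalization. The authors tested them with DESeq2.

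The genes of the table that passed a filter on low counts were tested here in R 4.3.3 by edgeR 4.0.16. Settings were the quasi-likelihood test, TMM, filterByExpr with a minimum of 10 counts, 12 libraries and treatment as the only term. The p was two-sided, with Benjamini-Hochberg adjustment over all genes tested and a threshold of 0.05. The SE was the absolute log2 fold change over the square root of the F statistic, not a fitted value. For some genes, Cd68 among them, it is smaller than the p beside it implies. CPM used the TMM library sizes, log2 CPM a prior count of 2, and RPKM the gene lengths of the table. For single genes the difference in mean log2 CPM was also put to an exact permutation test, two-sided, over 924 assignments (462 without rat 6), or within sheets over 400 (200 without rat 6). With 0 counts in rat 6, log2 CPM rests on the prior count. The edgeR and DESeq2 fits with treatment as the only term were first run on simulated counts, drawn without a difference between sheets. The fits with the sheet were not run on simulated counts. Plots used Python 3.11.15 and matplotlib 3.10.9.

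Alternatives were DESeq2 1.42.0, RLE size factors, no filter on low counts, the sheet as a covariate, and leaving out each library. Rats are separate animals, and no 2 libraries of a group agreed within sampling noise. The genes given with all their values were Aif1, P2ry12, Tmem119, Sall1, Trem2, Tyrobp, Cd68, Gpnmb and Spp1 and the 3 genes of each list with the smallest unadjusted p over 12 libraries. The 36 genes and all lists were chosen with earlier results of these data known. Of the genes of 15 further lists, 10 without a row were not analysed here.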

Additional observations from a re-analysis of the deposited data

Results flagged for a closer look

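In 44 comparisons of the libraries within a group, 4 values lay far from the others, where chance alone gives about 1 in 20, and all 4 belong to blast-control rat 6. Gpnmb was at 63.4 CPM there, while the 5 other blast-controls lay between 15.3 and 24.4 CPM. The summed disease-associated genes, which are Gpnmb and Spp1, were at the same 63.4 CPM against 17.1 to 25.6 CPM. Fcer1g was at 31.7 CPM against 4.81 to 9.68 CPM, and Inpp5d was at 0 CPM against 20.3 to 32.3 CPM. Gpnmb rests on 4 counts in rat 6 and Fcer1g on 2 counts, where 1 count is worth 15.8 CPM, and the 0 of Inpp5d allows up to 47.5 CPM.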

How the results depend on the processing

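No gene of the 36 had an adjusted p under 0.05 under any of the 19 alternatives. The number with an unadjusted p under 0.05 was 0 over 12 libraries, against 1.07% of all genes. It was 5 with the sheet as a covariate (3.85% of all genes), 5 with the sheet and without rat 6 (5.35%), and 5 in DESeq2 with both (4.69%). When each library was left out it ran from 0 to 1. The 1 gene was Olfml3, at log2 fold changes of 0.54 without rat 1, 0.48 without rat 12 and 0.49 without rat 19. Of the fits that left out 1 library, the share of all genes is given only for that without rat 6 (1.40%). The calls of Olfml3 are thus not set against a share. The fold change of Tyrobp turned above 0 with the sheet (0.021), with the sheet and without rat 6 (0.012) and in DESeq2 with both (0.0053). Leaving out each library turned 5 near 0, which ran from -0.40 to 0.043 for P2ry12 (above 0 without rat 1), -0.37 to 0.013 for Trem2 (rats 1 and 19), -0.25 to 0.16 for Tyrobp (rats 1, 7, 9, 12, 17 and 19), -0.10 to 0.12 for Sall1 (rats 4, 5, 20, 32 and 35) and -0.10 to 0.0062 for Aif1 (rat 12). List medians ran from -0.17 to -0.02 (homeostatic), -0.25 to 0.00 (lineage), -0.05 to 0.17 (receptors and lysosome) and -0.06 to 0.13 (disease-associated).

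The difference in mean log2 CPM that the permutation tests use counts rat 6 like any library, and without it the sign turned to -0.29 for P2ry12, -0.59 for Tmem119, -0.31 for Trem2, -0.14 for Tyrobp, -0.16 for Selplg, -0.35 for Inpp5d, -0.26 for Spi1 and 0.19 for Fcer1g. The geometric mean over a list in place of its sum, with rat 6, gave differences in log2 of 0.56 (homeostatic), 0.72 (lineage), 0.58 (receptors and lysosome) and 0.23 (disease-associated), and without rat 6, an alternative added after seeing the data, -0.10, -0.12, 0.05 and 0.08. No paired analysis was possible because the groups share no replicate number.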
